A study of Mus musculus with 18 samples.

Results

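Pericellular proteolysis by plasmin and its control by serpins were examined at the RNA level in mouse tail tendon fibroblasts (TFs). The 8 genes described are the plasminogen activators *Plat* and *Plau*, the urokinase receptor *Plaur*, and the serpins *Serpine2*, *Serpinf1*, *Serpina3n*, *Serpina3g* and *Serpina3h*. They were chosen by name from 55491 rows of a table of read counts per gene, with earlier results of these data known. Counts of members called, set beside shares of all genes, therefore describe this set and are no independent support. *Serpine2* and *Serpina3h* had been noted in earlier comparisons of the same counts, so their values are given as a description, with no test, and the other 6 genes were tested.

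The study compared poly-A RNA of TFs grown from tail tendon in collagen gels and then kept on culture plastic for 4 days in 20% O2 or 1% O2, to ask how tendon cells respond to low oxygen with and without *Hif1a*. Control (Ctrl) TFs came from Cre-negative mice, which the labels call wild-type, and cKO TFs from *Hif1a* flox/flox;ScxCre mice, in which Cre acts in cells that express or once expressed *Scx*. The third arm was Ctrl TFs treated with Cre gesicles, vesicles that carry Cre protein into cells. The paper's methods list Cre-negative controls as *Hif1a* flox/flox, which differs from the wild-type label. By those methods the third arm also carried floxed *Hif1a*, and whether it was deleted there was not tested. Donor mice were 4 to 6 months old and of both sexes, and each of the 6 groups (3 arms at 2 O2 levels) held 3 libraries, 18 in all. By sex-linked counts each Ctrl and gesicle group held 1 male and 2 female libraries, and each cKO group 2 male and 1 female, so genotype and sex were partly joined.

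Library totals ranged from 6857558 counts, in cKO replicate 1 in 1% O2, to 51806453. *Hif1a* counts per gene, which include exons outside a floxed stretch, were not lower in cKO TFs, so they do not show the deletion. The log2 fold change was 0.11 in 20% O2 (adjusted p = 0.757 by edgeR) and 0.08 in 1% O2 (adjusted p = 0.819). The paper reported reduced *Hif1a* by qPCR in cKO tail TFs after a longer culture. Counts of the Cre transgene were 1, 5 and 4 in cKO TFs in 20% O2 and 0, 2 and 3 in 1% O2. Ctrl and gesicle-treated libraries had 0. All 10 tendon fibroblast markers averaged at least 1 CPM (read counts scaled to a common library total with TMM factors), as did 2 of the 6 macrophage and other blood cell markers. Of these 6, *Cd14* averaged 9.97, *Csf1r* 1.11 and *Cd68* 0.948 CPM, and *Ptprc*, *Adgre1* and *Itgam* 0.0303, 0.00754 and 0.0216 CPM.

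Tissue-type and urokinase-type plasminogen activators, encoded by *Plat* and *Plau*, cut plasminogen to plasmin, a broad protease that degrades fibrin and matrix proteins and activates other proteases. Urokinase works at the cell surface when bound to its GPI-anchored receptor, the product of *Plaur*. Inhibitory serpins trap a protease by offering a reactive loop as bait, and in tendon the balance of activators and serpins bears on how matrix is remodelled.

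The members spanned a wide range of RNA levels. Compared per length, as CPM per kilobase of exon averaged over the 18 libraries, *Serpinf1* stood highest at 740, above 99.8% of the 16161 genes tested that had a length. *Serpine2* (45.4), *Plat* (32.9) and *Plaur* (24.1 CPM per kilobase) followed, and their ranges over libraries overlapped. *Serpina3g* (1.99) and *Serpina3n* (1.34 CPM per kilobase) were more than a factor of 10 lower, and *Plau* (0.307) and *Serpina3h* (0.151 CPM per kilobase) were near the bottom of the genes tested. Neighbours in that lower order also overlapped between libraries, whereas *Serpinf1*, at 552 or above in every library, overlapped no other member. *Plg*, the gene for plasminogen itself, had 0 counts in all 18 libraries, which allows up to 0.0579 to 0.438 CPM at these depths (3 counts, counting error only). *Plg* was named outside the naming rule, with its values seen.

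**Figure D1:**
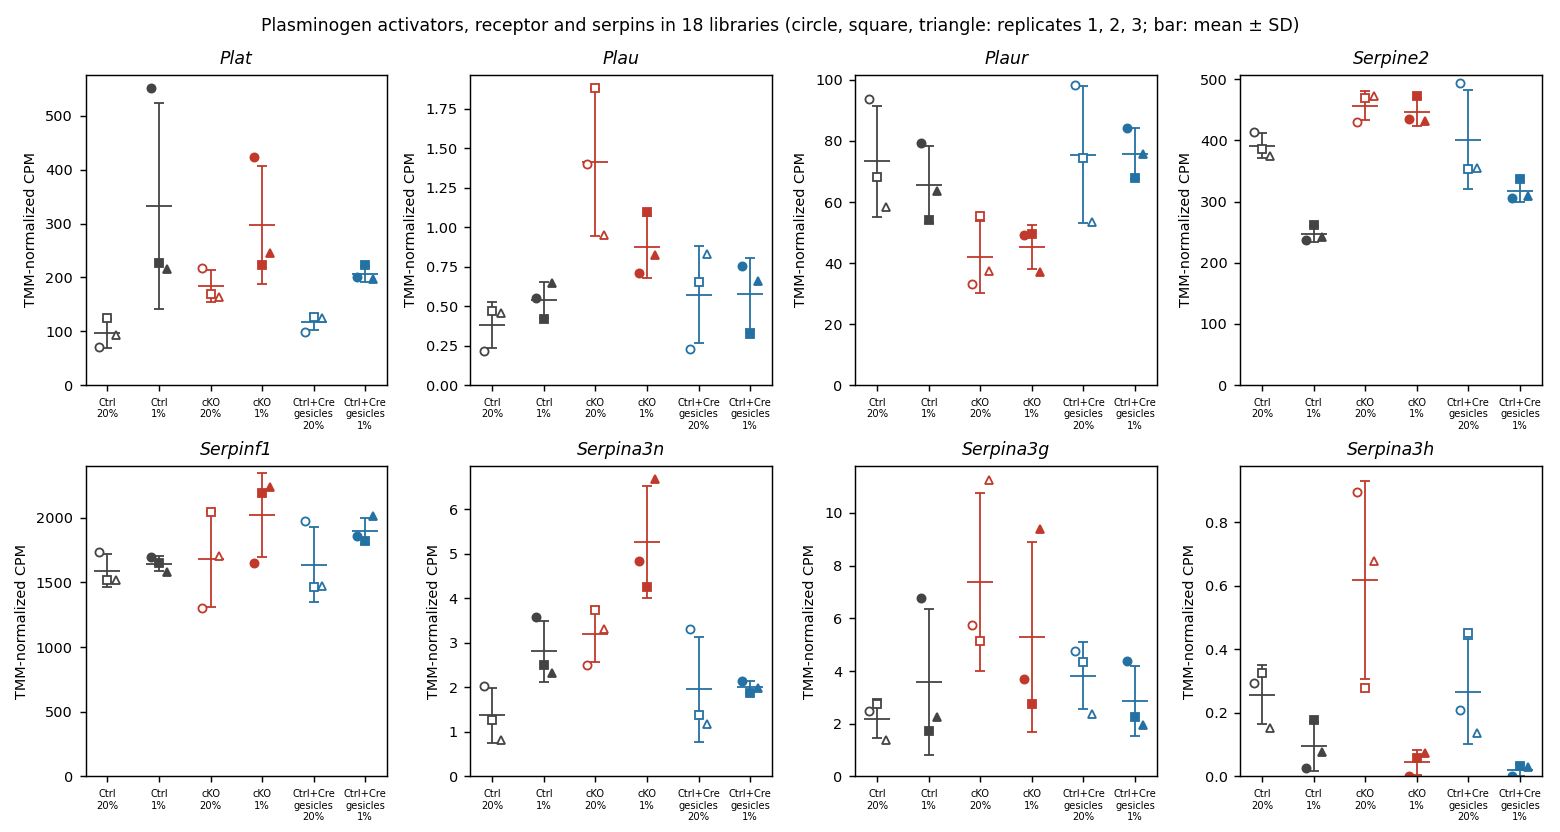
Level of each member in each library, in TMM-normalized CPM on axes that start at 0, for Ctrl, cKO and gesicle-treated Ctrl TFs in 20% O2 (open symbols) and 1% O2 (filled symbols). Circles, squares and triangles are replicates 1, 2 and 3, and bars give the mean ± SD (n = 3). *Plat* lies higher in 1% O2 in every arm, *Serpine2* is lower in 1% O2 in Ctrl TFs but not in cKO TFs, and *Plaur* is lower in cKO TFs.

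*Plat* rose in hypoxia in Ctrl TFs. Its level was 71.5, 124 and 93.1 CPM in 20% O2 and 553, 227 and 216 CPM in 1% O2 (replicates 1, 2 and 3). All 3 hypoxic libraries lay above all 3 normoxic ones, and replicate 1 in 1% O2 stood far above the other two. The fitted difference was a log2 fold change of 1.79 (SE 0.37, a 3.46-fold difference, adjusted p = 0.0263 by edgeR). *Plat* was the 1 of 6 tested members called, at an adjusted p under 0.05 and at least a 1.5-fold difference, where 1.88% of all 15850 genes tested were called. Libraries of the same number deviated together in Ctrl TFs, and once the replicate number entered as a block the value was 1.67 with an adjusted p of 0.0517, so the call was lost. It was also lost without any one of the 3 normoxic Ctrl libraries (adjusted p 0.0539 to 0.135) and without Ctrl replicate 1 in 1% O2, where the log2 fold change fell from 1.79 to 1.21 with an adjusted p of 0.0760.

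*Plat* behaved alike in direction in the other arms, with no call. In cKO TFs it was 218, 170 and 163 CPM in 20% O2 and 423, 223 and 245 CPM in 1% O2, which differed by 0.70 on the log2 scale (SE 0.36, adjusted p = 0.301). In gesicle-treated TFs it was 99.3, 127 and 125 CPM against 200, 224 and 197 CPM, which differed by 0.82 on that scale (SE 0.32, adjusted p = 0.190). In neither arm did the 20% and 1% O2 libraries overlap. Non-overlapping groups, higher in 1% O2, were found for 16.6% of genes in Ctrl TFs, 10.5% in cKO TFs and 13% in gesicle-treated TFs. The test of the difference in response between cKO and Ctrl TFs gave a log2 value of -1.09 (SE 0.51, adjusted p = 1.000 by edgeR), and that between gesicle-treated and Ctrl TFs -0.97 (SE 0.45, adjusted p = 1.000). The 2 comparisons share the Ctrl libraries. Between genotypes, *Plat* lay higher in cKO than in Ctrl TFs in 20% O2 without overlap, as did 10.8% of genes, by 0.93 on the log2 scale (SE 0.36, adjusted p = 0.306 by edgeR), and overlapped in 1% O2 (-0.17, SE 0.36).

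No other tested member was called with O2. Of the 6, edgeR called 0 in cKO TFs, where 2.1% of genes were called, and 0 in gesicle-treated TFs, where 2.41% of 16174 genes were called. DESeq2 also called 0 members in each, where it called 886 of 15850 and 732 of 16174 genes. In each arm 1 of 6 had an unadjusted p under 0.05 by edgeR (19.8% and 17.3% of all genes). The summed levels of endothelial and of mural cell markers were lower in 1% O2 in Ctrl TFs. The summed level of the endothelial markers was 28.0 to 45.6 CPM in normoxic and 11.5 to 27.6 CPM in hypoxic Ctrl TFs. Only *Tek* of these 5 reached 1 CPM, at 32.9 CPM on average, so the sum is mostly *Tek*. The defining *Pecam1* and *Cdh5* averaged 0.107 and 0.125 CPM. Summed mural markers were 100 to 175 CPM in normoxic and 48.8 to 97.9 CPM in hypoxic Ctrl TFs, with all 5 at 1 CPM or more on average. In gesicle-treated TFs the endothelial sum was 25.8 to 61.3 CPM in 20% O2 and 17.4 to 25.3 CPM in 1% O2. The mural sums of gesicle-treated TFs overlapped between O2 levels, as did both sums in cKO TFs. The part of either list in the *Plat* values was not tested, and in bulk RNA fewer cells of a type and less RNA per cell cannot be told apart.

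*Plau* was scarce in every group and highest in cKO TFs. It was 0.214, 0.472 and 0.456 CPM in Ctrl TFs in 20% O2, from 8 to 16 counts a library, and 1.40, 1.88 and 0.952 CPM in cKO TFs. In 1% O2 it was 0.552, 0.417 and 0.648 CPM in Ctrl and 0.711, 1.09 and 0.825 CPM in cKO TFs. The cKO libraries lay above the Ctrl libraries at both O2 levels, though in 1% O2 by little, and so did those of 10.8% of all genes in 20% O2 and 12.1% in 1% O2. The lowest cKO value in 1% O2, 0.711 CPM, came from 5 counts, and the highest Ctrl value there, 0.648 CPM, from 25. The separation in 1% O2 thus rests on few counts. Gesicle-treated TFs ranged from 0.232 to 0.828 CPM over both O2 levels and overlapped Ctrl TFs at each.

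*Plaur* went the opposite way. Ctrl TFs had 93.6, 68.3 and 58.3 CPM in 20% O2 and 79.3, 54.3 and 63.6 CPM in 1% O2, against 33.0, 55.3 and 37.3 CPM and 49.1, 49.6 and 37.1 CPM in cKO TFs. Each cKO group lay below the Ctrl group at the same O2 level, as for 10.3% of all genes in 20% O2 and 15.2% in 1% O2. Gesicle-treated TFs, at 53.5 to 98.4 CPM, overlapped Ctrl TFs and differed from them by a log2 fold change of 0.04 (SE 0.24) in 20% O2 and 0.21 (SE 0.24) in 1% O2. O2 made a difference of -0.15, 0.12 and 0.01 in Ctrl, cKO and gesicle-treated TFs on the log2 scale, each smaller than its SE.

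Averaged over both O2 levels, edgeR called 3 of the 6 tested members, with 2 higher and 1 lower in cKO than in Ctrl TFs, where it called 3.78% of all genes. *Plau* was higher by a log2 fold change of 1.30 (SE 0.29, adjusted p = 0.0315) and *Serpina3n* by 1.06 (SE 0.24, adjusted p = 0.0325), and *Plaur* fell by 0.68 (SE 0.17, adjusted p = 0.0405). That fit counts the 12 libraries as independent. With the 2 libraries of each replicate number summed, the log2 fold changes were 1.38 for *Plau*, 0.90 for *Serpina3n* and -0.74 for *Plaur*, with adjusted p of 0.150, 0.256 and 0.207, so no call remained, and 24 of 15850 genes were called in place of 599. With sex as a covariate, *Plau* kept its direction (1.36) with an adjusted p of 0.0543 by edgeR, so its call was lost. *Serpina3n* shrank to 0.89 (adjusted p = 0.0423) and *Plaur* went to -0.77 (adjusted p = 0.0252), both still called in that fit. Leaving out single libraries ended the call in 7 of 12 cases for *Plau*, 9 of 12 for *Serpina3n* and 10 of 12 for *Plaur*. The call held for *Plau* without Ctrl replicate 2 or cKO replicates 1 or 3 in 20% O2 or replicate 1 of either genotype in 1% O2, for *Serpina3n* without replicate 1 of either genotype in 20% O2 or Ctrl replicate 1 in 1% O2, and for *Plaur* without cKO replicates 1 or 2 in 20% O2.

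Within 1 O2 level no tested member was called by edgeR. In 20% O2, 5 of the 6 had an unadjusted p under 0.05, against 14.3% of all genes, and the called share was 0.347%. DESeq2 called 3 there, *Plau* (1.88), *Plaur* (-0.83) and *Serpina3n* (1.19 on the log2 scale), against 2.68% of genes, and edgeR without a filter on low counts called *Plaur* alone, against 0.985%. In 1% O2 the share called by edgeR was 0.0379%. DESeq2 called 0 of 6 members there and 302 of 15850 genes. Of the 6, 2 had an unadjusted p under 0.05 by edgeR, against 16.8% of genes. The interaction of genotype and O2 was called for 0 of 6 members by edgeR and by DESeq2. Over all genes edgeR called 0% and DESeq2 2 of 15850. For this interaction 0 members had an unadjusted p under 0.05 by edgeR, against 2.32% of genes.

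Mural cell markers also moved with genotype. Their summed level was 100 to 175 CPM in Ctrl and 38.0 to 56.3 CPM in cKO TFs in 20% O2, without overlap, and 48.8 to 97.9 CPM and 32.3 to 51.3 CPM in 1% O2. Their part in the genotype differences of *Plau*, *Plaur* and the *Serpina3* genes was not tested.

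**Figure D2:**
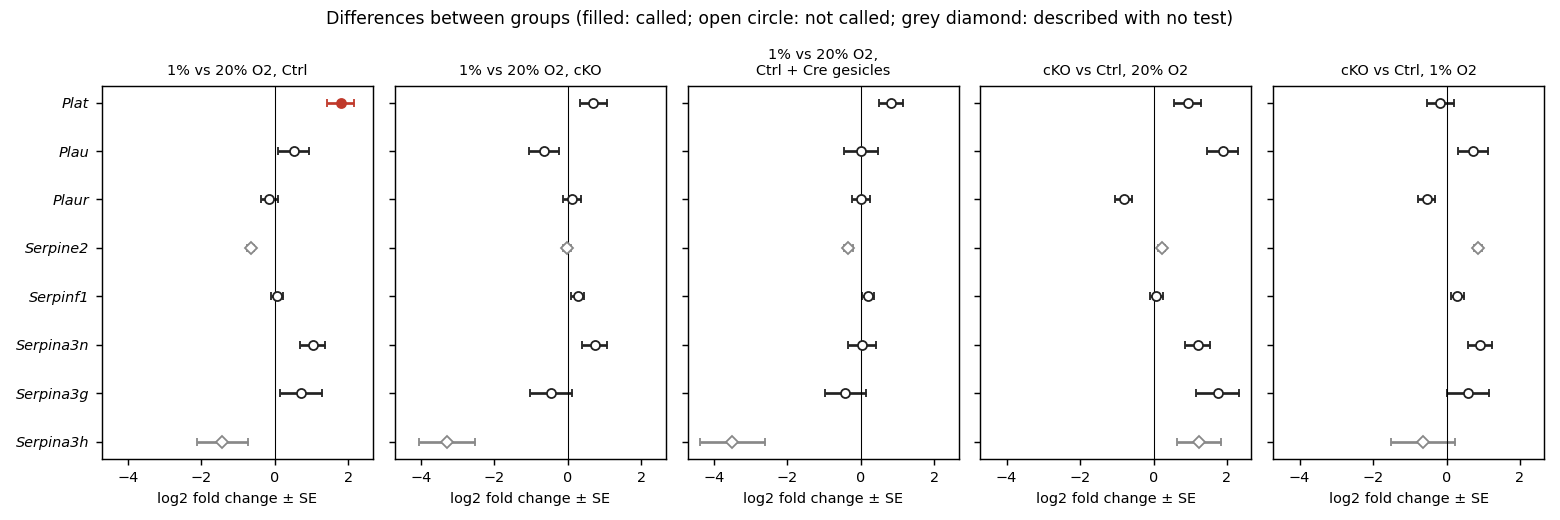
Log2 fold change ± SE of each member in the 3 comparisons of 1% with 20% O2 and the 2 comparisons of cKO with Ctrl TFs within an O2 level. Filled red circles are called, open circles were tested and not called, and grey diamonds mark *Serpine2* and *Serpina3h*, which have no test. *Plat* in Ctrl TFs, at 1.79, is the 1 filled point.

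*Serpine2*, which encodes protease nexin-1, an inhibitor of thrombin and of both plasminogen activators, was the second highest member per length. Its counts chose it, so no test is given. Ctrl TFs had 414, 385 and 374 CPM in 20% O2 and 238, 262 and 241 CPM in 1% O2, which gave -0.66 on the log2 scale (SE 0.10). The cKO TFs had 430, 469 and 472 CPM in 20% O2 and 435, 473 and 432 CPM in 1% O2, which gave -0.02 (SE 0.10). Hypoxic Ctrl libraries lay below all other libraries, a position for which no share of all genes was taken. Against the normoxic Ctrl libraries alone, 13.4% of genes were lower in 1% O2 without overlap. The 2 cKO groups overlapped almost completely. Gesicle-treated TFs had 494, 353 and 355 CPM in 20% O2 and 306, 337 and 308 CPM in 1% O2, which did not overlap (11% of genes were lower in this way) and gave -0.34 (SE 0.12). In 1% O2 the gesicle-treated libraries lay above the Ctrl libraries, as for 2.97% of genes, and below the cKO libraries, for which no share was taken. There the log2 fold change against Ctrl TFs was 0.36 (SE 0.12) with gesicles and 0.85 (SE 0.10) in cKO TFs, and these comparisons share the hypoxic Ctrl libraries.

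*Serpinf1* encodes pigment epithelium-derived factor, a secreted serpin that inhibits no protease, limits vessel growth and is needed for normal bone matrix. Group means ran from 1589 ± 127 CPM (SD, n = 3) in Ctrl TFs in 20% O2 to 2024 ± 324 CPM in cKO TFs in 1% O2. Libraries ranged from 1302 to 2234 CPM and both of these extremes were cKO TFs. No comparison of *Serpinf1* was called, and its log2 fold changes lay between 0.04 and 0.30. In 1% O2, gesicle-treated libraries (1821 to 2009 CPM) lay above Ctrl libraries (1583 to 1699 CPM), as did 2.97% of genes, with a log2 fold change of 0.20 (SE 0.16, adjusted p = 1.000 by edgeR).

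The *Serpina3* genes form a cluster of near copies on mouse chromosome 12. In GRCm38 coordinates of the GENCODE M21 annotation, *Serpina3g* lies at chr12:104236245-104241939, *Serpina3h* at chr12:104247905-104253669 and *Serpina3n* at chr12:104406729-104414329, all on the plus strand, and *Serpina3h* is annotated as a transcribed pseudogene. Of all 50-base windows of their transcripts, 6.90% in *Serpina3n*, 15.5% in *Serpina3g* and 21.9% in *Serpina3h* were also found in transcripts of other genes, the shares for windows of 100 bases were 0.204%, 3.49% and 3.60%, and for windows of 151 bases, the read length, the share was 0% in each. The 100-base windows include 36 common to *Serpina3g* and *Serpina3h*, so their transcripts share longer stretches than the one printed here. The longest stretch that the coding part of *Serpina3g* shares with *Serpina3h* is shown as an example of how close these copies are. It is 62 bases long, across the junction of exons 4 and 5 of 5 (chr12:104240383-104241082, intron left out), and the closest stretch of *Serpina3n* is given with its 2 differing bases in capitals.
*Serpina3g* and *Serpina3h*: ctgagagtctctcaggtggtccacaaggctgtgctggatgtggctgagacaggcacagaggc
*Serpina3n*: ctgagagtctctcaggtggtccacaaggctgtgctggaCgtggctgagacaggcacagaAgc
RSEM assigns reads between such copies by estimate, so the counts of these 3 genes carry an uncertainty that the replicates do not show.

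*Serpina3n*, a secreted acute-phase inhibitor of granzyme B and other serine proteases, was highest in cKO TFs in 1% O2. Ctrl TFs had 2.04, 1.27 and 0.821 CPM in 20% O2 and 3.59, 2.50 and 2.33 CPM in 1% O2. The cKO TFs had 2.51, 3.74 and 3.31 CPM in 20% O2 and 4.84, 4.26 and 6.68 CPM in 1% O2. The groups did not overlap between O2 levels in either genotype, nor between genotypes at either O2 level. Such a difference in the same direction was found for 16.6% of genes with O2 in Ctrl TFs, 10.5% with O2 in cKO TFs, 10.8% between genotypes in 20% O2 and 12.1% in 1% O2. The log2 fold change with O2 was 1.03 (SE 0.34, adjusted p = 0.163 by edgeR) in Ctrl and 0.73 (SE 0.33, adjusted p = 0.248) in cKO TFs. In gesicle-treated TFs the groups overlapped, at 3.31, 1.38 and 1.18 CPM in 20% O2 and 2.15, 1.88 and 1.99 CPM in 1% O2, with a log2 fold change of 0.04 (SE 0.38). In 1% O2 they lay below the Ctrl libraries, as for 3.35% of genes.

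*Serpina3g*, an intracellular serpin that inhibits lysosomal cysteine proteases, varied between replicates of a group by up to 3.91 times. In Ctrl TFs it was 2.47, 2.75 and 1.37 CPM in 20% O2 and 6.76, 1.73 and 2.25 CPM in 1% O2. In cKO TFs it was 5.74, 5.14 and 11.3 CPM in 20% O2 and 3.70, 2.73 and 9.40 CPM in 1% O2. Replicate 3 was the highest cKO library at both O2 levels, and replicate 1 the highest hypoxic Ctrl library. The genotypes overlapped in 1% O2 but not in 20% O2, where 10.8% of all genes were higher in cKO TFs without overlap. Averaged over O2, *Serpina3g* differed by a log2 fold change of 1.16 (SE 0.41, adjusted p = 0.0959 by edgeR), a difference that DESeq2 (adjusted p = 0.0283, 7.79% of genes called) and edgeR without a filter on low counts (adjusted p = 0.0319, 4.17% called) called. Gesicle-treated TFs ranged from 1.96 to 4.75 CPM and overlapped Ctrl TFs at each O2 level.

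*Serpina3h* had too few counts for more than a description. Its raw counts for replicates 1, 2 and 3 were 11, 11 and 5 in Ctrl TFs, 25, 11 and 30 in cKO TFs and 9, 20 and 7 in gesicle-treated TFs in 20% O2. In 1% O2 they were 1, 6 and 3 in Ctrl TFs, 0, 2 and 3 in cKO TFs and 0, 1 and 1 in gesicle-treated TFs. Counts were lower in 1% O2 in each arm, without overlap of the normalized levels in cKO TFs (10.2% of genes) and gesicle-treated TFs (11%) and with overlap in Ctrl TFs. In cKO replicate 1 in 1% O2 the count of 0 allows up to 0.438 CPM. That lies above cKO replicate 2 in 20% O2, at 0.280 CPM, so the separation in cKO TFs is not established. Counts summed over the 3 libraries were 27 in 20% and 10 in 1% O2 in Ctrl TFs, 66 and 5 in cKO TFs and 36 and 2 in gesicle-treated TFs. For *Serpina3g*, its neighbour and near copy, the log2 fold change with O2 was 0.71 (SE 0.58) in Ctrl TFs, or -0.13 without hypoxic Ctrl replicate 1, -0.45 (SE 0.57) in cKO TFs and -0.41 (SE 0.55) in gesicle-treated TFs, with no call.

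RefSeq promoter sequence (GRCm38.p6, 250 bases before to 50 after the gene start) was matched by symbol for 5 of the 8 members, namely *Plaur*, *Serpine2*, *Serpinf1*, *Serpina3n* and *Serpina3g*. Both strands were searched for ACGTG and GCGTG, forms of the core that HIF dimers bind, for TTCNNNGAA, the spacing bound by STAT factors, and for TGACTCA, the AP-1 site. The promoters of *Plaur*, *Serpina3n* and *Serpine2* are shown, 5′ to 3′ on the gene's strand, with any match in capitals. *Plaur* and *Serpina3n* were called between genotypes by edgeR only averaged over O2, and not with libraries of a number summed.
*Plaur*, chr7:24462233-24462532, plus strand: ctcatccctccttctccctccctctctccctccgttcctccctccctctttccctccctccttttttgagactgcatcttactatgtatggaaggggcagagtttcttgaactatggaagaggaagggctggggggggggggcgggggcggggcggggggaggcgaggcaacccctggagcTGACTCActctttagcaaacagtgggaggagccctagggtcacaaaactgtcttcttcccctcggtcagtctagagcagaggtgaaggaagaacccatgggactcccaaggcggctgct
*Serpina3n*, chr12:104406458-104406757, plus strand: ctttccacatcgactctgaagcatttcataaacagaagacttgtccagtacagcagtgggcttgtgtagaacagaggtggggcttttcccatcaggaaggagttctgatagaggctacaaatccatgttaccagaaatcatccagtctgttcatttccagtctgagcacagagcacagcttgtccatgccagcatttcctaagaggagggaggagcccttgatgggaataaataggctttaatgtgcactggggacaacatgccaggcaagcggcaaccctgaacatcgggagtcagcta
*Serpine2*, chr1:79858616-79858915, minus strand: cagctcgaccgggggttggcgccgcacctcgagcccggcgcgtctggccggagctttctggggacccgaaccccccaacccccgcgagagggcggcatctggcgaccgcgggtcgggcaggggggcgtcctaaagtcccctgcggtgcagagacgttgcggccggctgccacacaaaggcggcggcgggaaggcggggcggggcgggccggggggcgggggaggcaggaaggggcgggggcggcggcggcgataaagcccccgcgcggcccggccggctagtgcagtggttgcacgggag
*Plaur* held 1 TGACTCA, a motif found in 5.2% of 32851 promoters of the same length, and *Serpina3n* and *Serpine2* held none of the 4 motifs. Of the promoters not shown, *Serpinf1* held 1 ACGTG (19.6% of promoters) and *Serpina3g* 1 TTCNNNGAA (8.3% of promoters). None of the 5 promoters searched held GCGTG (32.4% of promoters). *Plat*, *Plau* and *Serpina3h* had no promoter sequence and were not searched. A match is a description of these letters, and no match says only that they are not in this window.

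No tested member was called between gesicle-treated and Ctrl TFs. Both edgeR and DESeq2 called 0 of 6 in 20% O2 and 0 of 6 in 1% O2. Over all genes edgeR called 0.0247% and 0%, and DESeq2 called 46 and 0 of 16174. With an unadjusted p under 0.05 there were 0 members in 20% O2 and 1 in 1% O2, *Plat*, at a log2 fold change of -0.68 (SE 0.32), against 3.67% and 2.0% of genes. The interaction of gesicles and O2 was called for 0 of 6 by both tools, where edgeR called 0% of genes, and 1 had an unadjusted p under 0.05, against 1.5% of genes. Leaving out hypoxic Ctrl replicate 1, the highest *Plat* library, brought the *Plat* difference in 1% O2 to -0.08.

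Other genes of the plasminogen system were led by *Serping1* in hypoxia. Of 26 listed, 15 were tested, and 3 were called in Ctrl TFs (1.88% of all genes), 2 in cKO TFs (2.1%) and 4 in gesicle-treated TFs (2.41%). All were higher in 1% O2 except *St14* in gesicle-treated TFs. The median log2 fold change of the 15 was 0.01, 0.29 and 0.14 in these arms, beside 0.00, -0.03 and -0.02 over all genes tested.

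*Serping1*, which encodes C1 inhibitor, a serpin of the complement and contact systems, was 26.9, 36.8 and 36.0 CPM in Ctrl TFs in 20% O2 and 129, 114 and 139 CPM in 1% O2. Its log2 fold change was 1.94 (SE 0.20, adjusted p = 0.000364 by edgeR) in Ctrl, 1.17 (SE 0.20, adjusted p = 0.0107) in cKO and 1.19 (SE 0.20, adjusted p = 0.00481) in gesicle-treated TFs. *Serping1* was also higher in cKO than in Ctrl TFs in 20% O2, by 1.06 (SE 0.20, adjusted p = 0.0476). That call did not outlast leaving out any 1 of the 6 libraries. Averaged over O2 the difference was 0.67 (SE 0.14, adjusted p = 0.0249), and with libraries of a number summed the adjusted p was 0.364.

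*Procr*, the receptor of protein C, rose in each arm, by a log2 fold change of 1.19 (SE 0.19, adjusted p = 0.00667 by edgeR) in Ctrl, 0.79 (SE 0.19, adjusted p = 0.0492) in cKO and 0.92 (SE 0.17, adjusted p = 0.00817) in gesicle-treated TFs. *Eno1*, a glycolytic enzyme that can also bind plasminogen at the cell surface, rose by 1.09 (SE 0.16, adjusted p = 0.00367) in Ctrl and 0.61 (SE 0.14, adjusted p = 0.0263) in gesicle-treated TFs, and its value in cKO TFs was 0.58 (SE 0.16, adjusted p = 0.0716), with no call. The 3 calls in Ctrl TFs (*Serping1*, *Procr* and *Eno1*) held when any 1 library was left out and with the replicate block. *Procr* in cKO TFs and *Eno1* in gesicle-treated TFs were each called in 1 of 6 such fits. *St14*, the membrane protease matriptase, fell by 1.57 on the log2 scale (SE 0.41, adjusted p = 0.0490) in gesicle-treated TFs, a call kept in 0 of 6 such fits. Its log2 fold change was -1.66 (SE 0.45, adjusted p = 0.0912) in Ctrl and -0.92 (SE 0.45, adjusted p = 0.281) in cKO TFs, neither called.

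**Figure D3:**
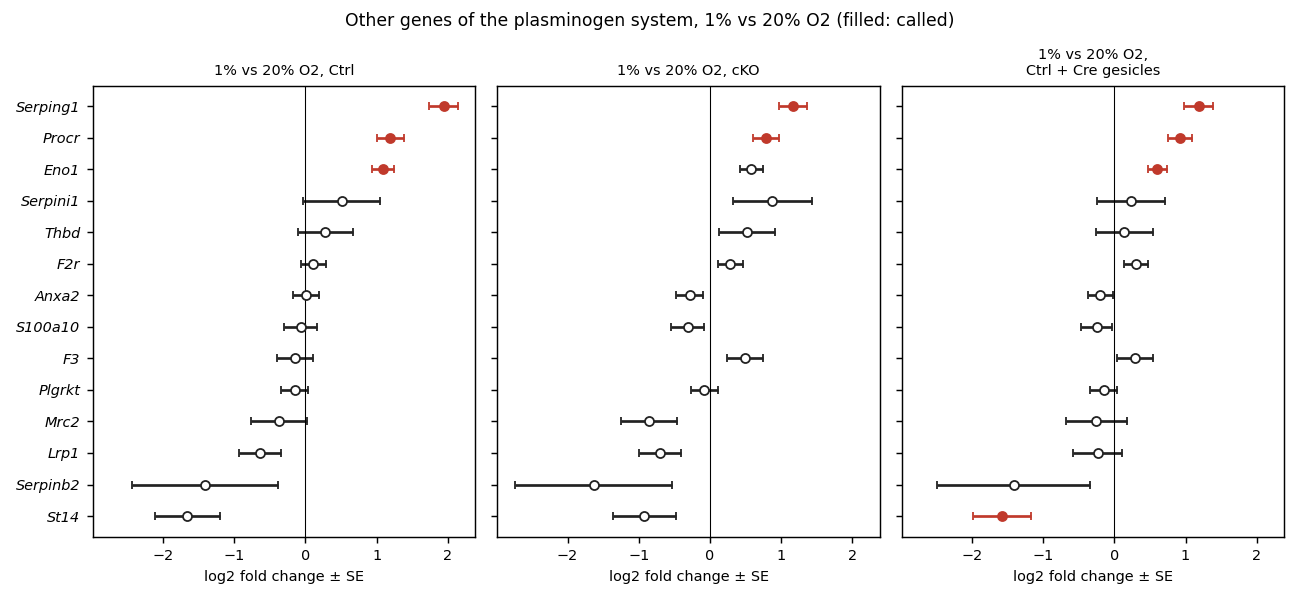
Log2 fold change ± SE between 1% and 20% O2 for 14 of the 15 tested genes of the plasminogen system other than the members, in Ctrl, cKO and gesicle-treated TFs, in the order of the Ctrl values. Filled red points are called. *Serping1*, *Procr* and *Eno1* lead in Ctrl TFs at 1.94, 1.19 and 1.09.

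Among the other 58 serpins listed, 15 were tested, and 31 had no more than 3 counts in any library. *Serpina3c*, another gene of the *Serpina3* cluster, was higher in cKO than in Ctrl TFs averaged over O2, by a log2 fold change of 1.39 (SE 0.25, adjusted p = 0.0142 by edgeR, and 0.142 with libraries of a number summed). *Serpinb9*, an intracellular inhibitor of granzyme B, rose in 1% O2 in cKO TFs by 0.69 (SE 0.14, adjusted p = 0.0281, and 0.0604 with the replicate block). Its log2 fold change with O2 was 0.58 (SE 0.14, adjusted p = 0.0564) in Ctrl and 0.26 (SE 0.13, adjusted p = 0.305) in gesicle-treated TFs, neither called. *Serpina3c* and *Serpinb9* were the 2 calls over the comparisons made. Each was 1 of 15 tested in its comparison, where 3.78% and 2.1% of all genes were called. The median log2 fold change of the 15 with O2 was 0.32 in Ctrl, 0.30 in cKO and 0.16 in gesicle-treated TFs.

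The members did not follow one pattern across the 18 libraries. Over log2 CPM, Pearson's r was 0.63 between *Serpina3g* and *Serpina3n*, 0.61 between *Serpina3n* and *Serpinf1*, 0.59 between *Serpina3n* and *Plat* and -0.67 between *Plau* and *Plaur*, and lay between -0.53 and 0.41 for the other pairs. Among 16174 genes, those most like each member were *Ptgs1* (0.93) and *Ddit4l* (0.92) for *Plat*, and *Osr2* (0.87) and *Ccl9* (0.84) for *Plau*, and *Rrm2* (0.87) was among the 2 most like *Plaur*. For the serpins they were *Arl8b* (0.88) and *Cnn3* (0.85) for *Serpine2*, *Sparc* (0.88) and *Upf3a* (0.87) for *Serpinf1*, *Rps4l* (0.88) and *Gm26520* (0.85) for *Serpina3n*, *Spon2* (0.90) and *Ptn* (0.86) for *Serpina3g*, and *Gm44275* and *Mapk11* (both 0.88) for *Serpina3h*. These values describe 18 libraries that share groups, arms and, for *Serpina3h*, low counts.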

How the data were processed

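Poly-A RNA of mouse tail TFs was sequenced (151-base paired reads). The authors trimmed reads with cutadapt, checked them with FastQC 0.11.8 and MultiQC 1.20, mapped them to GRCm38 with STAR and deposited expected counts per gene from RSEM 1.3.3, rounded to whole numbers and not normalized. No 2 libraries were copies (smallest chi-square per degree of freedom 15.3). Totals ran from 6857558 to 51806453, and precision at low counts is set by them.

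The 8 members and all gene lists were chosen with earlier results of these data known. The 4 transgene rows were left out. After filterByExpr, the quasi-likelihood test of edgeR 4.0.16 was run on TMM-scaled counts, with a coefficient for each group, once over the 12 libraries without gesicles and once over all 18 for comparisons of gesicles, with Benjamini-Hochberg adjustment over all genes tested. A gene was called at an adjusted p under 0.05 and a fold of at least 1.5. SE was taken as the size of the log2 difference over the root of F. The fit was tested on simulated data. Levels are CPM with the TMM factors of all 18 libraries, and lengths and positions come from GENCODE M21. Named genes were the members, the called genes of 3 lists (at most the 3 highest and 3 lowest a comparison), *Hif1a* and the 2 genes most correlated with each member, and 1 tested gene of the plasminogen list and 1 correlated gene are not reported here. Motifs were searched in RefSeq promoters.

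The replicate block was used as a check where numbers could pair libraries. Deviations of same-numbered libraries correlated at 0.298 or more between O2 levels in Ctrl TFs and at 0.211 or more between Ctrl and gesicle-treated TFs, so these were read as paired. In cKO TFs, in gesicle-treated TFs and between genotypes they were not above 0.1 in every pair. P-values measure the spread between libraries, taken as 3 mice a genotype per the study's methods. Alternatives were DESeq2 1.42.0, RLE factors, other filters, other sets of libraries, the block, sex as a covariate, no fold minimum and each library left out. Sex as a covariate and summing the libraries of a number over O2 were added after the data were seen. R 4.3.3 and Python 3.11.15 were used.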

Additional observations from a re-analysis of the deposited data

How the results depend on the processing

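Counts of called members changed under several settings. With 1% against 20% O2 in Ctrl TFs, the 1 member called became 0 with the replicate block and 0 in a fit of only the 2 groups compared, and 0 to 1 when single libraries were left out. For cKO against Ctrl TFs in 20% O2, the 0 called became 3 with DESeq2 and 1 with no filter on low counts. Averaged over O2, the 3 called became 0 with the replicate block (adjusted p 0.0528 for *Plau* and *Plaur* and 0.0503 for *Serpina3n* by edgeR). They became 0 with the libraries of a number summed, and 0 to 3 when single libraries were left out. Between genotypes the block joined different mice of opposite sex, a pairing that the correlations did not bear out. It therefore cannot show how firm those calls are. The block changed no other count of called members. The cause was not tested.

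*Serpinf1* in cKO against Ctrl TFs in 20% O2 turned from 0.08 to -0.039 with sex as a covariate. Small differences also turned in sign when single libraries were left out. With O2 in Ctrl TFs, *Plaur* ran from -0.31 to 0.060 and *Serpina3g* from -0.13 to 1.04, and with O2 in cKO TFs *Plaur* ran from -0.035 to 0.38. With O2 in gesicle-treated TFs, *Plau* ran from -0.35 to 0.38, *Plaur* from -0.19 to 0.24 and *Serpina3n* from -0.23 to 0.64. Between cKO and Ctrl TFs, *Serpinf1* in 20% O2 ran from -0.10 to 0.23, and in 1% O2 *Plat* from -0.49 to 0.41 and *Serpina3g* from -0.18 to 1.43. Between gesicle-treated and Ctrl TFs in 20% O2, *Plaur* ran from -0.20 to 0.24, *Serpinf1* from -0.11 to 0.12 and *Serpina3n* from -0.11 to 0.89. In 1% O2, *Plau* ran from -0.10 to 0.41 and *Serpina3g* from -0.75 to 0.54, and *Plaur* in the interaction of gesicles and O2 from -0.029 to 0.40. None of these was called.

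Counts over all genes moved by more than 1.5 times. DESeq2 called 696 genes against 298 with O2 in Ctrl TFs, 886 against 333 in cKO TFs and 732 against 390 in gesicle-treated TFs. Between cKO and Ctrl TFs it called 425 against 55 in 20% O2, 302 against 6 in 1% O2 and 1235 against 599 averaged, with 2 against 0 for the interaction, and 46 against 4 for gesicles in 20% O2. Without a filter the counts were 511 for O2 in cKO TFs, 281, 111 and 1189 for cKO against Ctrl TFs (20% O2, 1% O2, averaged) and 23 for gesicles in 20% O2. A fit of only the groups compared called 84, 120, 1, 0, 1 and 1 for O2 in cKO and gesicle-treated TFs, cKO against Ctrl TFs in 20% and 1% O2, gesicles in 20% O2 and the gesicle interaction. The replicate block called 2 in 1% O2 and 358 averaged, and sex as a covariate 15, 336 and, for gesicles in 20% O2, 0. All 18 libraries in 1 fit called 87 in 20% and 14 in 1% O2 between genotypes. Leaving out single libraries, counts ran from 116 to 261, 97 to 1374 and 148 to 346 for O2 in Ctrl, cKO and gesicle-treated TFs, from 1 to 154, 0 to 6 and 143 to 1531 for cKO against Ctrl TFs, and from 0 to 2 for gesicles in 20% O2. Depth limits *Serpina3h* and *Plau* most, with 0 to 30 and 5 to 74 counts a library, and in cKO replicate 1 in 1% O2 a count of 0 allows 0.438 CPM.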

Other observations

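Acute-phase and inflammatory genes, chosen because *Serpina3n* is induced with them in many tissues, were listed as a group of 17. Of these, 11 were tested in the fit of Ctrl and cKO libraries. *Socs3*, a feedback inhibitor of cytokine receptors, was the only gene called. Its log2 fold change between cKO and Ctrl TFs averaged over O2 was 0.60 (SE 0.15, adjusted p = 0.0401 by edgeR). In that comparison 3.78% of all genes were called. The adjusted p was 0.239 with libraries of a number summed. It was 0.0597 with the replicate block, a pairing that the correlations did not bear out between genotypes. The call was also lost with sex as a covariate, and held in 1 of 12 fits that left out a single library. *Socs3* was 5.92, 7.17 and 5.96 CPM in Ctrl and 12.4, 9.57 and 12.4 CPM in cKO TFs in 20% O2. The genotypes did not overlap there, as for 10.8% of all genes, higher in cKO TFs. In 1% O2 it was 6.76, 9.80 and 9.15 CPM in Ctrl and 9.39, 9.93 and 13.5 CPM in cKO TFs, which overlapped. The list's median log2 fold change between genotypes was -0.13 averaged over O2, beside 0.02 over all genes.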
